A study of Bos taurus with 9 samples.

Results

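The smooth muscle contractile genes examined were 10 genes whose products build or steer the actin and intermediate filament apparatus of contractile cells: ACTA2, TAGLN, CNN1, CNN2, TPM1, TPM2, CALD1, FLNA, VCL and DES. Their members were all probe sets of the array annotated with one of these symbols alone, which gave 15 of the 24016 probe sets tested and 10 of 9155 named genes. ACTA2, TAGLN, CNN1, CALD1 and DES had 1 probe set each and the others had a pair. Where a gene had a pair, the brighter and the dimmer probe set are named as such.

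The samples were co-cultures of bovine endometrial stromal and epithelial cells, seeded at 3 stromal cells to 1 epithelial cell, from Holstein/Polish Black and White cows on days 2 to 5 of the cycle. Cultures were kept for 6 h with lysophosphatidic acid (LPA, 1e-06 M) plus interferon tau (IFNt, 1000 antiviral units), with LPA at the same dose alone, or with PBS as the control. Each of these 3 groups had 3 arrays, and every array carried 1 pool of RNA from 3 cows. The labels give 9 cows for 9 such pools, so pools share animals. Whether pools of equal replicate number hold the same cows is not stated. The limma p-values measure the spread between pools of one group and ignore any pairing by replicate number. Only the fit with that number as a block takes pairing into account. No interferon tau without LPA was analysed here, so the comparison of LPA+IFNt with LPA shows what interferon tau added to LPA.

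Contraction is driven by myosin pulling on actin filaments once myosin light chain kinase has phosphorylated the myosin light chain. Tropomyosins, calponins and caldesmon lie along the actin filament and gate that interaction, filamin cross-links filaments, vinculin ties them to adhesions, and desmin is a muscle intermediate filament. LPA receptors promote actin assembly, which releases MRTF coactivators that work with the transcription factor SRF on many of these genes. Stromal fibroblasts in culture can express several of them as part of a myofibroblast state, and interferon tau is the pregnancy signal of ruminants that acts through the type I interferon receptor.

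The members are called smooth muscle genes by convention, and the probe set of a defining marker of smooth muscle cells read at background. MYH11, the smooth muscle myosin heavy chain gene, had 2.34 to 2.43 on all 9 arrays. That was under 2.80, the top reading on any array of the controls for a bacterial trp message, which served as a mark of background. The probe set of MYH9, a nonmuscle myosin heavy chain gene, read 1.70 to 1.79. Whether such readings reflect absent transcripts or failing probe sets was not tested. Of 8 measured smooth muscle and pericyte markers, 4 lay above that mark in control (LMOD1, MCAM, PDGFRB and SMTN). The mean log2 level of these 8 was 4.41 to 4.46 on LPA+IFNt arrays, 4.51 to 4.61 on LPA arrays and 4.52 to 4.64 on control arrays. Of these 8, 4 had a positive and 4 a negative fold change in LPA+IFNt against control, with a median of -0.006, and SMTN had the largest (-0.93, adjusted p = 0.0564). The 11 stromal and 10 epithelial markers all lay above the mark in control, and 0 of 5 endothelial markers did. Of 6 measured skeletal and cardiac muscle markers, 4 lay under the mark in control (MYOD1, MYOG, TNNI2 and TNNT3). The 2 above it were actin genes, with 4.41 to 4.59 for ACTA1 and 3.51 to 4.40 for ACTC1 over the 9 arrays. In such mixed cultures fewer cells of a type and less RNA per cell cannot be told apart.

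All values are deposited log2 expression values, and a difference of 1 is a 2-fold difference. The level of one probe set is not set against that of another. Tests are limma's moderated test over all 24016 probe sets, with p adjusted by Benjamini-Hochberg and a threshold of 0.05. Array medians lay between 4.29 and 4.37, and r between arrays of one group was 0.9965 to 0.9990. The 3' to 5' difference of the GAPDH control probe sets was 0.13 to 0.38 on LPA+IFNt arrays, 0.02 to 0.23 on LPA arrays and 0.22 to 0.56 on control arrays, and its part in the results was not tested.

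The largest called change of the contractile genes was in ACTA2, the smooth muscle alpha-actin gene that also marks myofibroblasts. ACTA2 was at 9.90, 9.63 and 9.74 on LPA+IFNt arrays, at 10.87, 10.45 and 11.09 on LPA arrays, and at 10.27, 10.45 and 10.18 on control arrays. All LPA+IFNt arrays lay below every other array, and the LPA and control arrays met at replicate 2. ACTA2 fell in LPA+IFNt against LPA by 1.05 on the log2 scale (SE 0.16, 95% interval -1.42 to -0.67, limma adjusted p = 0.00853), which is 2.07-fold lower. The group means were 9.75 ± 0.13 with LPA+IFNt and 10.80 ± 0.33 with LPA (SD, n = 3 each). Only 1.47% of all probe sets had a larger change in that comparison.

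Within replicate numbers ACTA2 was lower in LPA+IFNt than in LPA in 3 of 3 pairs, by log2 differences of -0.97, -0.81 and -1.35. LPA+IFNt against control gave -0.55 (SE 0.16, 95% interval -0.92 to -0.17, adjusted p = 0.117). LPA against control gave 0.50 (SE 0.16, 95% interval 0.13 to 0.87, adjusted p = 0.439), made up of 0.60, -0.01 and 0.91 in the 3 pairs. Neither of these passed the threshold, and both comparisons with LPA share the same 3 LPA arrays. The loss against LPA alone kept its call in each of the 14 other fits by probe set, with adjusted p of 2.44e-05 to 0.0408. Among these, the fits with an array left out gave adjusted p of 0.0016 to 0.0408, and the replicate block gave 0.0201. Against control ACTA2 was called in 2 of the 14, with the LPA arrays out of the fit (0.0353) and without LPA replicate 2 (0.0285).

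**Figure D1:**
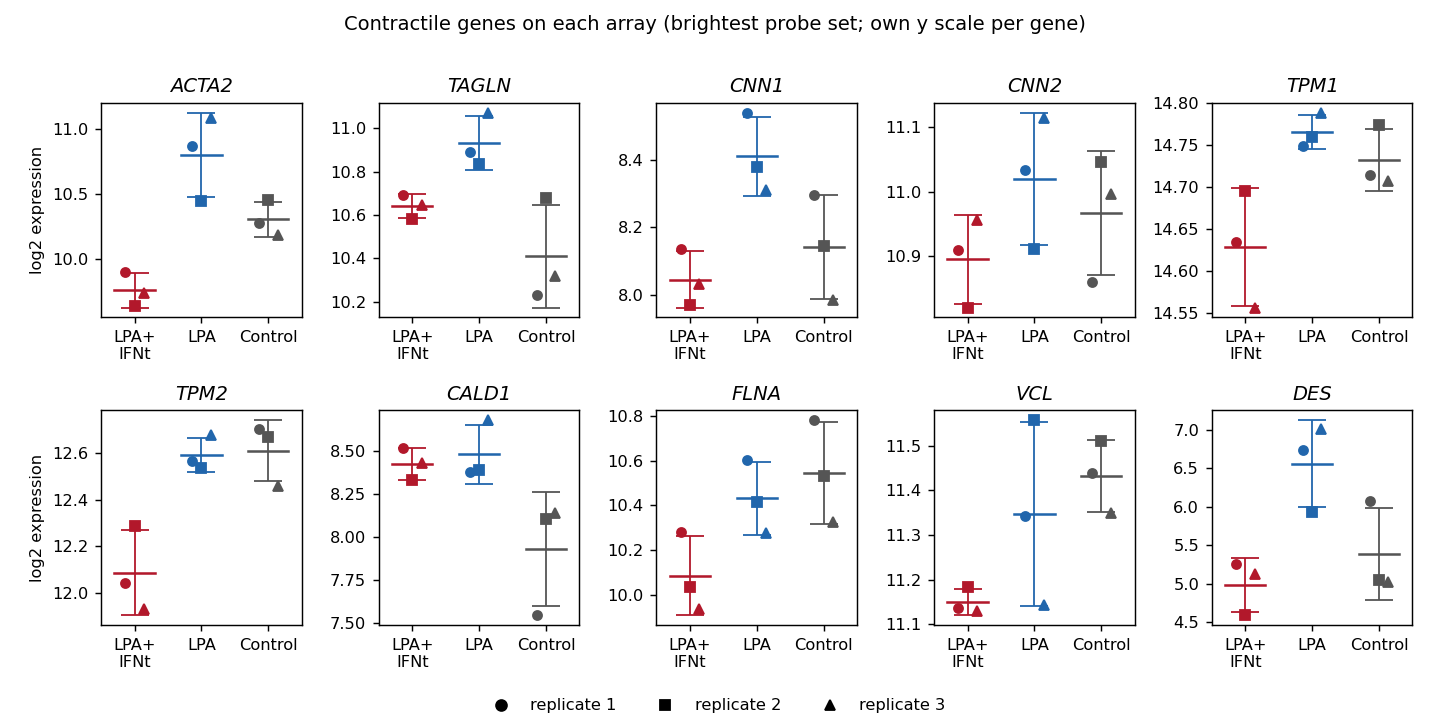
Log2 expression of each contractile gene by its brightest probe set (y axis, own scale per gene) on the 3 LPA+IFNt, 3 LPA and 3 control arrays (x axis). Points are arrays, with symbols for the replicate number, and bars are the mean ± SD. All LPA+IFNt arrays lie below all others for ACTA2, TPM2 and TPM1, and the LPA arrays lie above both other groups for TAGLN and CNN1.

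The nonmuscle actin genes gave no call. ACTB, the beta-actin gene, had log2 fold changes of -0.03 in LPA+IFNt against LPA (adjusted p = 0.744) and -0.01 in LPA against control (adjusted p = 1). ACTG1, the gamma-actin gene, had -0.02 (adjusted p = 0.837) and 0.05 (adjusted p = 0.988) in those comparisons. Both stood at 14.91 to 15.32 on the arrays, close to the top of the scale. Smooth muscle gamma-actin, ACTG2, was not measured under its own name, and how far related actin transcripts bind the ACTA2 probe set was not tested.

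DES, the gene of the muscle intermediate filament desmin, had the widest range of the members, 2.43 on the log2 scale over the 9 arrays. It was at 5.25, 4.59 and 5.12 with LPA+IFNt, at 6.74, 5.93 and 7.01 with LPA, and at 6.07, 5.05 and 5.03 in control. LPA arrays 1 and 3 lay above every other array, while LPA replicate 2 lay under control replicate 1. The difference of LPA+IFNt against LPA was -1.57 (SE 0.38, 95% interval -2.45 to -0.70, adjusted p = 0.0526), just short of the threshold, with 3 of 3 pairs lower. With the replicate number as a block it passed (SE 0.25, adjusted p = 0.0204). DES was called there in 6 of the 14 other fits by probe set, with adjusted p up to 0.174 in the rest. The fits that called it included the trended robust prior (0.039), the filter on dim probe sets (0.0174) and spike-in centring (3.31e-07). Gene averages also called it (0.042). LPA against control gave 1.18 (SE 0.38, 95% interval 0.30 to 2.05, adjusted p = 0.434), with 3 of 3 pairs higher by 0.67, 0.88 and 1.99. LPA+IFNt against control gave -0.39 (SE 0.38, 95% interval -1.27 to 0.48, adjusted p = 0.597). The spread of DES between pools of one group (pooled SD 0.52) was the highest of the 15 probe sets, against a median of 0.0824 over all probe sets.

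TPM1 and TPM2 encode tropomyosins, the coiled-coil proteins that run along actin. TPM2, by its brighter probe set, was at 12.05, 12.29 and 11.93 with LPA+IFNt, at 12.57, 12.53 and 12.68 with LPA, and at 12.70, 12.67 and 12.46 in control. The LPA+IFNt arrays lay below all 6 others, and the LPA and control arrays overlapped. TPM2 fell in LPA+IFNt against LPA by 0.50 (SE 0.10, 95% interval -0.74 to -0.27, limma adjusted p = 0.0273) and in LPA+IFNt against control by 0.52 (SE 0.10, 95% interval -0.76 to -0.29, limma adjusted p = 0.0260). LPA against control gave -0.02 (95% interval -0.25 to 0.22, adjusted p = 1).

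The dimmer TPM2 probe set was at 3.49 to 4.02 with LPA+IFNt, at 4.02 to 4.08 with LPA and at 3.99 to 4.52 in control. Its log2 fold changes were -0.23 in LPA+IFNt against LPA (adjusted p = 0.595) and -0.46 in LPA+IFNt against control (adjusted p = 0.212). It was called in neither comparison but was lower in 3 of 3 pairs in each. The TPM2 calls were not kept without some of the arrays. Against LPA, adjusted p rose to 0.0504 without control replicate 2, 0.0849 without LPA replicate 1, 0.0851 without LPA replicate 3, 0.0909 without LPA+IFNt replicate 1 and 0.0769 without LPA+IFNt replicate 3. Against control, the call was lost without control replicate 1 (0.0986) or 2 (0.101), LPA replicate 1 (0.0508), or LPA+IFNt replicate 1 (0.0868) or 3 (0.0756), and with spike-in centring both were lost (0.138 against LPA and 0.106 against control). Both were also lost with only the groups compared in the fit (0.0609 against LPA and 0.0645 against control) and with the TPM2 probe sets averaged (0.132 against LPA and 0.0601 against control).

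TPM1 did not pass in any comparison. Its brighter probe set was at 14.63, 14.70 and 14.56 with LPA+IFNt, at 14.75, 14.76 and 14.79 with LPA, and at 14.71, 14.77 and 14.71 in control. The LPA+IFNt arrays lay under all others by small steps, with log2 fold changes of -0.14 against LPA (95% interval -0.23 to -0.04, adjusted p = 0.109) and -0.10 against control (adjusted p = 0.250). The dimmer TPM1 probe set had -0.004 against LPA (95% interval -0.30 to 0.29) and 0.14 against control (95% interval -0.15 to 0.44). Tropomyosin and caldesmon genes give rise to muscle and nonmuscle isoforms by splicing, and the annotation by gene does not separate them.

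TAGLN and the calponin genes encode actin-binding proteins that are used as markers of smooth muscle and myofibroblast differentiation. TAGLN, the transgelin gene, was at 10.69, 10.58 and 10.64 with LPA+IFNt, at 10.89, 10.84 and 11.07 with LPA, and at 10.23, 10.68 and 10.32 in control. The LPA arrays lay above both other groups, which overlapped each other. The log2 fold changes were 0.52 in LPA against control (SE 0.12, 95% interval 0.25 to 0.79, adjusted p = 0.212) and -0.29 in LPA+IFNt against LPA (SE 0.12, 95% interval -0.56 to -0.02, adjusted p = 0.243). Neither passed, nor did LPA+IFNt against control at 0.23 (95% interval -0.04 to 0.50, adjusted p = 0.381). TAGLN was thus the member with the smallest p in LPA against control (unadjusted p = 0.00231), and no fit called it.

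CNN1, the smooth muscle calponin gene, was at 8.13, 7.97 and 8.03 with LPA+IFNt, at 8.54, 8.38 and 8.31 with LPA, and at 8.29, 8.14 and 7.98 in control. LPA arrays again lay above both other groups. LPA+IFNt against LPA gave -0.37 (SE 0.09, 95% interval -0.58 to -0.15, adjusted p = 0.0624), or adjusted p = 0.0109 with the replicate number as a block. LPA against control gave 0.27 (SE 0.09, 95% interval 0.06 to 0.48, adjusted p = 0.475) with 3 of 3 pairs higher by 0.25, 0.24 and 0.33. CNN2, a calponin of nonmuscle cells, was at 10.82 to 10.96 with LPA+IFNt, 10.91 to 11.11 with LPA and 10.86 to 11.05 in control by its brighter probe set. Its groups overlapped, and neither probe set was called, with -0.12 and -0.17 in LPA+IFNt against LPA (95% intervals -0.29 to 0.04 and -0.47 to 0.13).

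CALD1 did not share the lower level with LPA+IFNt. The caldesmon gene was at 8.52, 8.33 and 8.43 with LPA+IFNt, at 8.37, 8.39 and 8.68 with LPA, and at 7.55, 8.10 and 8.14 in control. Both treated groups lay above all control arrays and overlapped each other. The log2 fold changes were 0.49 in LPA+IFNt against control (SE 0.16, 95% interval 0.12 to 0.87, adjusted p = 0.163) and 0.55 in LPA against control (SE 0.16, 95% interval 0.17 to 0.93, adjusted p = 0.385). Neither passed, and both comparisons share the control arrays, of which replicate 1 was the lowest. Without control replicate 1 the values were 0.30 and 0.36. LPA+IFNt against LPA gave -0.05 (95% interval -0.43 to 0.32).

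FLNA and VCL encode filamin A, which cross-links actin filaments, and vinculin, which anchors them at adhesions. FLNA, by its brighter probe set, was at 10.28, 10.04 and 9.94 with LPA+IFNt, at 10.60, 10.42 and 10.28 with LPA, and at 10.78, 10.53 and 10.33 in control. In each group replicate 1 was the highest and replicate 3 the lowest, and within each number LPA+IFNt was lower than LPA, by -0.32, -0.38 and -0.34. LPA+IFNt against LPA gave -0.35 (SE 0.14, adjusted p = 0.254), or SE 0.034 and adjusted p = 0.00458 with the replicate number as a block. LPA+IFNt against control gave -0.46 (SE 0.14, adjusted p = 0.133), or adjusted p = 0.00172 with the block. The dimmer FLNA probe set was at 2.18 to 2.27 on the 9 arrays, under the trp mark of 2.80 on every one, and says nothing about a change.

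VCL, by its brighter probe set, was at 11.14, 11.18 and 11.13 with LPA+IFNt, at 11.34, 11.56 and 11.14 with LPA, and at 11.44, 11.51 and 11.35 in control. The LPA+IFNt arrays lay below the control arrays, and LPA replicate 3 reached down to them. LPA+IFNt against control gave -0.28 (95% interval -0.51 to -0.06, adjusted p = 0.181) and LPA+IFNt against LPA -0.20 (95% interval -0.42 to 0.03, adjusted p = 0.365). The dimmer VCL probe set gave -0.38 and 0.01 in those comparisons, with LPA replicate 3 (6.70) apart from the other LPA arrays (6.04 and 6.15). The suffix of the brighter VCL probe set is the one Affymetrix gives to probes that may match more than 1 gene.

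Counted over the members, LPA against control held 0 calls in 15 probe sets by limma, with 0.05% of all probe sets called higher and 0.0208% called lower. At an unadjusted p under 0.05 there were 5 (ACTA2, TAGLN, CNN1, CALD1 and DES, all with higher means after LPA), against 8.3% of all probe sets in either direction. The LPA arrays lay above all control arrays for 3 (TAGLN, CNN1 and CALD1), against 5.13% of all probe sets, and below them for 0, against 4.91%. The median log2 fold change of the 15 was 0.03, and that of all probe sets was 0.002. The fits by other settings also gave 0 calls, except that spike-in centring called DES (1.16, adjusted p = 7.67e-04).

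LPA+IFNt against control held 0 higher and 1 lower call (TPM2), against 2.48% and 2.86% of all probe sets. Arrays did not overlap for 1 higher (CALD1), against 10.2%, and for 5 lower (ACTA2 and the brighter probe sets of TPM1, TPM2, FLNA and VCL), against 12.8%. The median of the 15 was -0.28, with 0.02 over all probe sets. With the replicate number as a block 2 were called lower, TPM2 (adjusted p = 0.0362) and FLNA, against 5.44% of all probe sets in that fit. With only these groups in the fit TPM2 lost its call and ACTA2 and VCL (adjusted p = 0.0321) were called lower. Without control replicate 1 or 2, LPA replicate 1, or LPA+IFNt replicate 1 or 3 the count was 0, and it was 2 without LPA replicate 2, which added ACTA2.

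LPA+IFNt against LPA held 0 higher and 2 lower calls (ACTA2 and TPM2), against 2.56% and 3.98% of all probe sets. Arrays did not overlap for 0 higher, against 7.35%, and for 6 lower (ACTA2, TAGLN, CNN1, DES and the brighter probe sets of TPM1 and TPM2), against 11.3%. The median of the 15 was -0.20, with 0.02 over all probe sets. With the replicate block 5 were lower: ACTA2 (adjusted p = 0.0201), CNN1, TPM2 (0.0379), FLNA and DES, against 6.28% of all probe sets in that fit. The count was 4 without control replicate 1 (CNN1 and DES added), 3 without control replicate 3 (CNN1 added) or LPA replicate 2 (DES added), and 1, ACTA2, where control replicate 2, LPA replicate 1, LPA replicate 3, LPA+IFNt replicate 1 or LPA+IFNt replicate 3 was left out.

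With each array centred on the hybridisation controls, the calls over all probe sets in LPA+IFNt against LPA split into 681 higher and 523 lower, against 614 and 957 with the values as deposited. The split in LPA+IFNt against control was 621 higher and 418 lower, against 595 and 687. That centring gave ACTA2 a log2 fold change of -0.98 in LPA+IFNt against LPA, called as before, while the median over all probe sets became 0.08. The SE over all probe sets ran from 0.144 to 0.679 with that centring, against 0.0210 to 1.08 with the replicate block. The part of this narrower range in the small adjusted p of DES with spike-in centring was not tested.

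**Figure D2:**
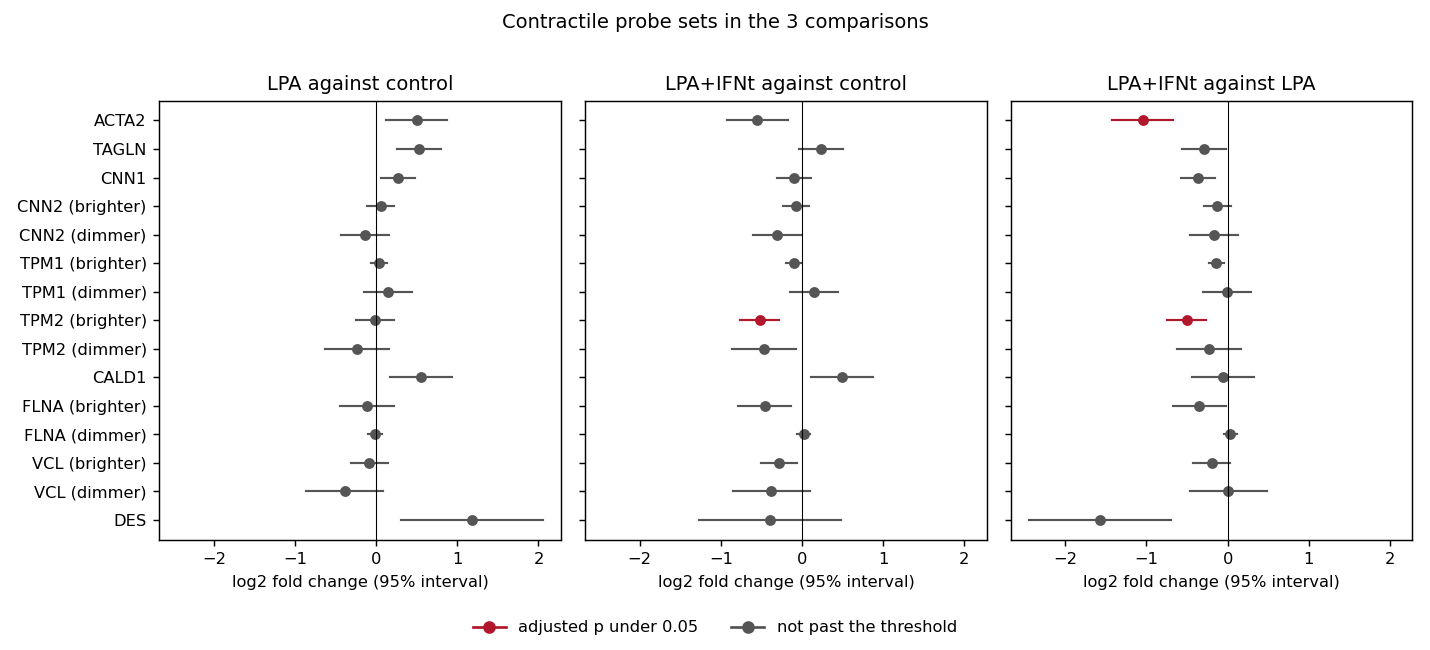
Log2 fold change (x axis) of the 15 probe sets of contractile genes (y axis) with its 95% interval for LPA over control (left), LPA+IFNt over control (middle) and LPA+IFNt over LPA (right), red where the adjusted p was under 0.05. Red points stand at TPM2 (brighter) in the middle panel and at ACTA2 and TPM2 (brighter) in the right one, and no point is red in the left panel.

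By array, the lowest value of a member lay on an LPA+IFNt array for 10 of 15 probe sets, on an LPA array for 2 and on a control array for 3. Over all probe sets these shares were 28.2%, 42.3% and 29.5%. The highest value lay on an LPA+IFNt array for 1 of 15 probe sets, on an LPA array for 9 and on a control array for 5, against 48.6%, 27.7% and 23.7% of all probe sets. Within replicate numbers, 11 of 15 probe sets were lower with LPA+IFNt than with LPA in 3 of 3 pairs and 0 were higher in 3 of 3, against 20.5% and 36.1% of all probe sets. The exceptions were CALD1 and the dimmer probe sets of TPM1, FLNA and VCL. In LPA against control 5 were higher in 3 of 3 pairs (TAGLN, CNN1, CALD1, DES and the dimmer TPM1 probe set) and 1 was lower (the brighter FLNA probe set), against 13% and 14.2% of all probe sets. The shares over all probe sets include dim ones. A filter on dim probe sets was passed by 13 of the 15. Among all probe sets that passed it, the median was -0.05 in LPA+IFNt against LPA and -0.06 in LPA+IFNt against control. Shares among probe sets of like brightness were not counted.

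**Figure D3:**
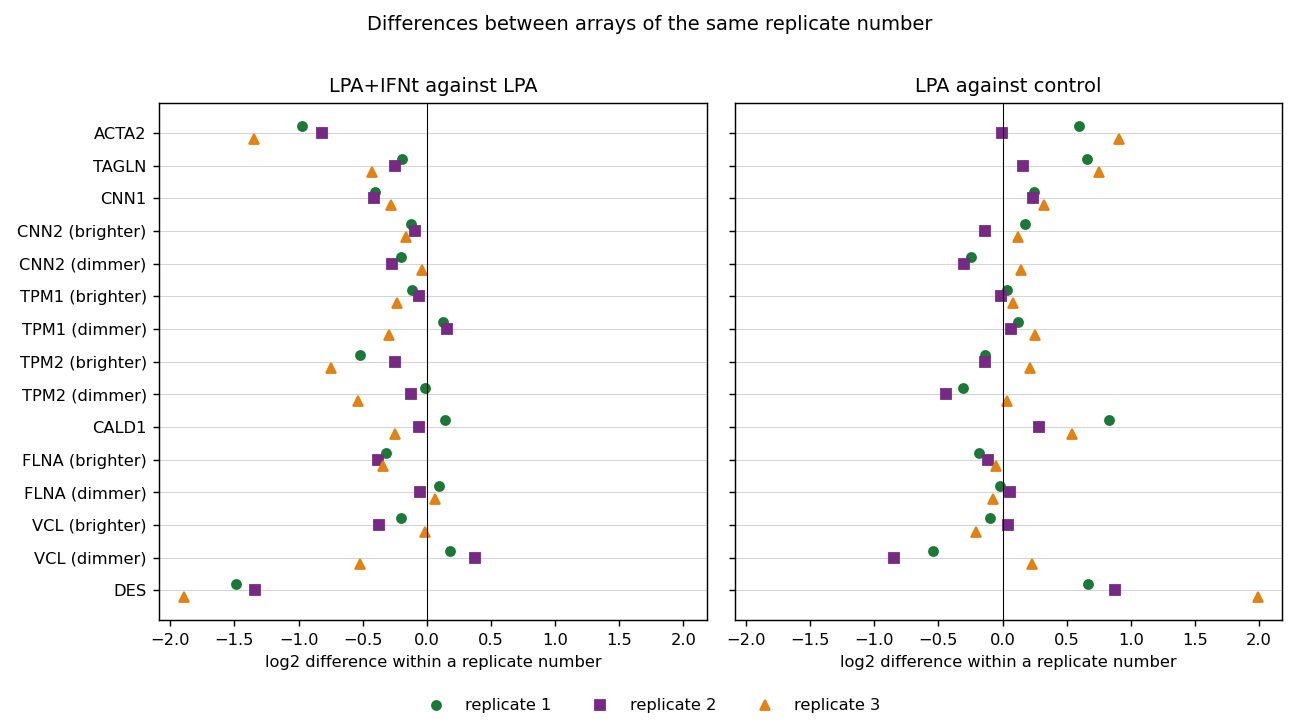
Log2 difference between arrays of the same replicate number (x axis) for each probe set of the contractile genes (y axis), LPA+IFNt minus LPA on the left and LPA minus control on the right, with symbols and colours for the replicate number. For ACTA2 all points lie between -1.35 and -0.81 on the left, and replicate 2 lies at -0.01 on the right where the others reach 0.60 and 0.91.

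A wider list of contractile and actin genes was read beside the members, by the brightest probe set of each gene, with 34 of 50 symbols measured. In LPA+IFNt against LPA 3 of the 34 were lower and 0 higher, and the median was -0.05, with 0.01 over all 9155 named genes, of which 343 were called higher and 381 lower. The 3 were FHL1, a LIM-domain gene of muscle, MYLK, the gene of myosin light chain kinase, and FLNC, the gene of muscle filamin. In LPA+IFNt against control 2 were lower, FHL1 and MYLK, and 0 higher, against 3.13% of all named genes called lower. The median of the list was -0.02, with -0.006 over all named genes. With the replicate block 7 were lower in each of these comparisons, against 7.66% of all named genes in LPA+IFNt against LPA and 7.14% in LPA+IFNt against control. In LPA against control 0 were called by limma and 1 had an unadjusted p under 0.05, MYL6 (0.13, adjusted p = 0.528), a myosin light chain gene, and FHL2 (0.11, adjusted p = 0.626) and LMOD1 (0.05, adjusted p = 0.781) had the next smallest p.

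MYLK was called by both of its probe sets in both comparisons of LPA+IFNt. The dimmer was at 11.50, 11.43 and 11.61 with LPA+IFNt, at 12.60, 12.36 and 12.71 with LPA, and at 12.15, 12.12 and 12.09 in control. The 3 groups did not overlap, with LPA the highest and LPA+IFNt the lowest. Its log2 fold changes were -1.04 in LPA+IFNt against LPA (SE 0.09, limma adjusted p = 4.51e-04) and -0.61 in LPA+IFNt against control (SE 0.09, limma adjusted p = 0.00765). LPA against control gave 0.44 (SE 0.09, adjusted p = 0.170, or 0.0304 without LPA replicate 2).

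The brighter MYLK probe set was at 13.15, 13.02 and 13.37 with LPA+IFNt, at 13.75, 13.57 and 13.78 with LPA, and at 13.57, 13.60 and 13.55 in control. It gave -0.52 in LPA+IFNt against LPA (adjusted p = 0.0146) and -0.40 in LPA+IFNt against control (adjusted p = 0.0499). Its call against control held when LPA replicate 2 or LPA+IFNt replicate 3 was left out and was lost without any of the other arrays (adjusted p up to 0.157) and with spike-in centring (0.303). Its call against LPA was lost without LPA replicate 1 (0.0643), LPA replicate 3 (0.0517) or LPA+IFNt replicate 1 (0.0564) and with spike-in centring (0.0696). Both calls were also lost with only the groups compared in the fit (0.0652 against LPA and 0.0762 against control).

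FHL1 was at 9.08, 8.91 and 8.95 with LPA+IFNt, at 9.65, 9.40 and 9.55 with LPA, and at 9.40, 9.55 and 9.33 in control. The LPA+IFNt arrays lay below both other groups, and it fell by 0.56 against LPA (adjusted p = 0.00788) and by 0.45 against control (adjusted p = 0.0213). The FHL1 call against LPA held in every alternative, and that against control was lost without control replicate 1 (0.0668) or 2 (0.0734), LPA+IFNt replicate 2 (0.0764) or 3 (0.0772) and with spike-in centring (0.170). FLNC fell by 0.55 against LPA (adjusted p = 0.0397), and its dimmer probe set stood at -0.19 (adjusted p = 0.621). FLNC lost its call without control replicate 2, each of the 3 LPA arrays, or LPA+IFNt replicate 2 or 3 (adjusted p up to 0.136), and with spike-in centring (0.0527). By the brightest probe set of each gene, SMTN, the smoothelin gene, had the largest value of the list. It stood at -0.65 against LPA (adjusted p = 0.160, or 0.0314 with the block) and -0.93 against control (adjusted p = 0.0564, or 0.0114 with the block). The SRF and MYH9 probe sets lay under the trp mark on all arrays, so neither gene could be followed, and ROCK2 (-0.47, adjusted p = 0.584, or 0.0162 with the block) was not called in LPA+IFNt against LPA.

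Markers of other cell types are given beside these results. In LPA+IFNt against LPA 4 of 11 stromal markers were called lower and 7 did not pass, against 4.16% of all named genes called lower. The 4 were THY1 (-0.69), COL1A1 (-0.55), COL3A1 (-0.54) and COL1A2 (-0.25). Of the list 11 of 11 had a negative fold change, and the median was -0.25. The mean log2 level of the 11 was 11.68 to 11.71 on LPA+IFNt arrays, 11.92 to 12.14 on LPA arrays and 11.82 to 11.91 on control arrays. VIM, the vimentin gene, stood at -0.19 (adjusted p = 0.136) and DCN, the decorin gene, at -0.10 (adjusted p = 0.445). In LPA+IFNt against control 2 of the 11 were called lower and 0 higher, against 3.13% of all named genes called lower. They were COL3A1 (-0.51, adjusted p = 0.00153) and COL1A1 (-0.39, adjusted p = 0.0340), and 9 of the 11 had a negative and 2 a positive fold change. In LPA against control 0 of the 11 passed, with THY1 at 0.55 (adjusted p = 0.0713). Of the 10 epithelial markers 1 was lower in LPA+IFNt against LPA, SPINT2 (-0.45, adjusted p = 0.00457), and the median was 0.05. In LPA+IFNt against control 1 of the 10 was called higher, CDH1 (0.21, adjusted p = 0.0112), and 0 lower, with 314 of 9155 named genes called higher. Their mean log2 level had a median of 10.98 over LPA+IFNt arrays, 10.98 over LPA arrays and 10.94 over control arrays. Of the 5 leukocyte markers 3 lay above the trp mark in control and 2 under it. CD53, a tetraspanin gene of leukocytes, was called higher in LPA+IFNt against LPA (1.15, adjusted p = 0.0336) and against control (1.26, adjusted p = 0.0252), and the other 4 were called in no comparison. CD14 stood at -0.80 against LPA (adjusted p = 0.0758) and PTPRC at -0.72 (adjusted p = 0.317). The part of the stromal or leukocyte share of the culture in the ACTA2 and TPM2 results was not tested.

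**Figure D4:**
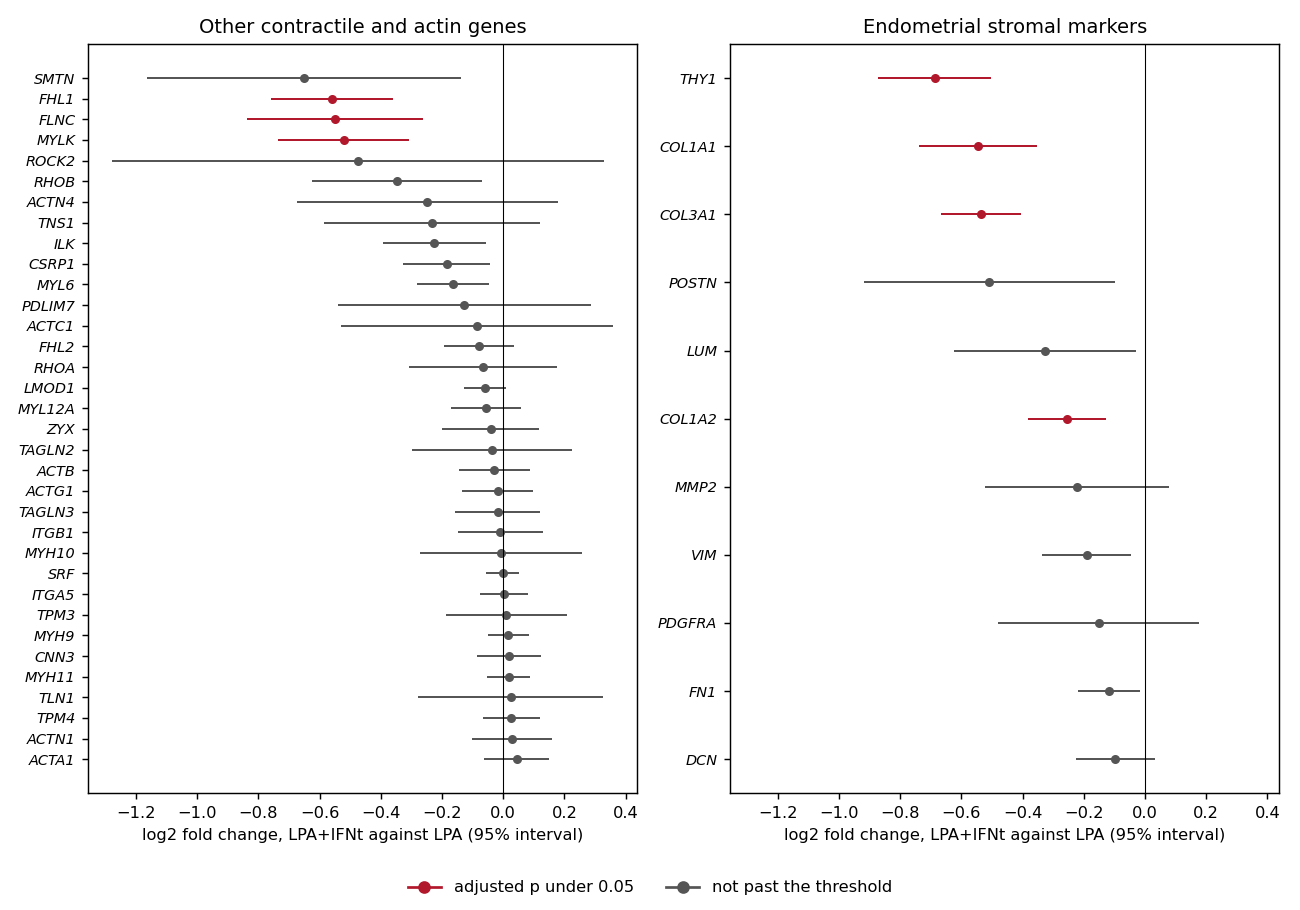
Log2 fold change in LPA+IFNt against LPA (x axis) with its 95% interval for 34 other contractile and actin genes on the left and 11 stromal markers on the right, red where the adjusted p was under 0.05. FHL1, FLNC and MYLK are red on the left, where ACTB and ACTG1 sit at -0.03 and -0.02, and THY1, COL1A1, COL3A1 and COL1A2 are red on the right.

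Genes outside the members were ranked by how closely their values, each minus its own mean over the 9 arrays, followed those of TAGLN and TPM2, as the root mean square difference in log2 units over 9145 genes. Nearest to TAGLN were FKBP9 (0.0767), PSMD13 (0.114), ARHGAP24 (0.116), SERPINH1 (0.121) and DPM2 (0.122). Nearest to the brighter TPM2 probe set were LAMB1 (0.0815), CSGALNACT2 (0.0921), SDC2 (0.0945), UACA (0.0961) and ZNF572 (0.0981). In LPA+IFNt against LPA the log2 fold changes of the 5 nearest to TAGLN ran from -0.37 (FKBP9) to -0.07 (ARHGAP24), beside -0.29 for TAGLN. Those of the 5 nearest to TPM2 ran from -0.57 (CSGALNACT2) to -0.46 (ZNF572), beside -0.50 for TPM2. These genes were picked for closeness on the same arrays, so similar fold changes follow from the choice.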

How the data were processed

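The deposited values are log2 expression per probe set, made by the authors; per the submitters' processing notes the tools were Partek and RMA, with no version given. RMA corrects background, equalises the distributions of arrays by quantile normalization and summarises probes, so a change shared by most transcripts would be hidden. No label states the base of the logarithm, and 2 is assumed because RMA commonly writes it. Of 24128 probe sets 112 Affymetrix controls were left out. Gene names came from the array annotation, updated by gene identifier through the RefSeq table of ARS-UCD2.0 (0 symbols changed). Of the 24016 probe sets 13292 had 1 symbol, 86 several and 10638 were unnamed here. Limma 3.58.1 in R 4.3.3 fitted the 3 groups over all 9 arrays without a covariate (two-sided), and was tested on simulated data. Those data had independent errors on each array and no planted change in the most variable probe sets. That test therefore does not cover pairing by replicate number or very variable probe sets. Intervals are limma's 95% intervals for single probe sets. The number of arrays limits the precision.

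Members and lists were chosen with earlier results of these data known. All members were described, with every list gene past the threshold (up to 6) or the 3 of smallest p, and the 5 genes nearest to TAGLN and to TPM2. The other genes of the wider list and the single markers were named after their values were seen. Replicate numbers paired the arrays: deviations from group means correlated at 0.19 to 0.491 in all 9 pairs of equal number, so the fit with the number as a block is given where it changed a call. Alternatives were that block, only the 2 groups compared, spike-in centring on 18 hybridisation control probe sets, a trended robust prior, a filter on dim probe sets, gene averages and leaving out each array. No detection call was used.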

Additional observations from a re-analysis of the deposited data

How the results depend on the processing

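No result changed direction while called. Of 669 member fold changes under the alternatives, 16 lost a call, 17 gained one, and 23 that were called in neither fit changed sign. The count of called members in LPA against control (0) was 1 with spike-in centring and 0 to 0 with each array left out. In LPA+IFNt against control (1) it was 2 with the replicate block, 0 with spike-in centring, 2 with only those groups fitted (ACTA2 and VCL, with TPM2 lost) and 0 to 2 with an array left out. By gene averages it was 0 genes, against 1 (TPM2, adjusted p = 0.0601). In LPA+IFNt against LPA (2) it was 5 with the replicate block, 4 with the filter on dim probe sets (CNN1 at adjusted p = 0.0373 and DES at 0.0174 added, with fewer probe sets tested), 1 with only those groups fitted and 1 to 4 with an array left out. The trended robust prior added DES (0.039) there. With spike-in centring and with gene averages DES was added and TPM2 lost. The wider contractile list went to 7 calls with the replicate block, 4 with the trended robust prior, 5 with the filter and 0 to 3 with an array left out in LPA+IFNt against control (2). In LPA+IFNt against LPA (3) it held 7 with the replicate block and 1 to 3 with an array left out. With spike-in centring it held 2 in each of these comparisons, with FLNC and MYLK losing their calls against LPA and FHL1 and MYLK against control, so other genes of the list were called there. Over all probe sets the 17 calls of LPA against control became 11 with the replicate block, 192 with spike-in centring, 50 with the trended robust prior, 53 with the filter, 1 with only those groups fitted and 0 to 169 with an array left out. The 1282 of LPA+IFNt against control became 2085 with the replicate block and 791 to 1352 with an array left out. They became 1264 with the trended robust prior and 1443 with the filter. The 1571 of LPA+IFNt against LPA became 2320 with the replicate block, 1544 with the trended robust prior and 1744 with the filter. They became 1004 with only those groups fitted and 954 to 2204 with an array left out. The filter tested fewer probe sets, so the share of all probe sets called was larger with it in both comparisons. Spike-in centring left LPA against control with 89 higher and 103 lower calls, against 12 and 5. Where no cause is named it was not tested. The block changed no other member call. Values near background, as for the dimmer FLNA probe set, carry no information on change.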
